A study of Mus musculus with 6 samples.

Results

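The genes described here are the cyclins, their cyclin-dependent kinases (CDKs), the CDC25 phosphatases with the WEE1 kinase, and the E2F and RB families, measured in mouse spleen on 1-colour oligonucleotide arrays. They were taken by gene symbol, which gave 42 genes of the 34741 genes and unnamed features on the array, with 62 of its 55681 probes. Spleens came from B10.BALB-16.C2A mice, a strain that the series title calls congenic. One group had received 900 cGy of total body irradiation 24 h before harvest, and the other consisted of resting mice at 0 cGy. Each group had 3 arrays, each hybridised with pooled RNA of 3 mice. The RNA came from homogenised whole splenocytes that were not sorted by type, so each value mixes the cell types that were present. The comparison asks how the transcript levels of these genes differed 24 h after irradiation.

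Cyclins are regulatory subunits that switch on CDKs at set points of the cell cycle. D-type cyclins with CDK4 and CDK6, and then cyclin E with CDK2, phosphorylate RB and its relatives, which releases E2F transcription factors that drive the genes of DNA synthesis. Cyclin A carries the cycle through S and G2, and cyclin B with CDK1, kept off by WEE1 and switched on by CDC25 phosphatases, drives mitosis. Several other cyclins and CDKs act on transcription by RNA polymerase II. In the mouse spleen, dividing cells include red cell precursors of the red pulp and activated B cells.

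All values are log2 signals of a gene's brightest probe relative to the 75th percentile of its array, so that 0 is that percentile and a difference of 1 is a 2-fold difference. The scanner software rated 39036 to 41267 probes per array as well above background, and 59 or 60 of the members' 62 probes were. Adjusted p-values are from limma with Benjamini-Hochberg adjustment over all 26642 genes tested, at a threshold of 0.05, and errors are standard errors with 3 arrays a group. The p-values measure the spread between pools. Spike-in control spots read 0.89 to 1.18 log2 units over the 75th percentile on the unirradiated arrays and 1.18 to 1.39 on the irradiated ones. Scaled to those spots, the median change of all genes moved from -0.06 to -0.30 and the share of higher genes among those called from 47.7% to 32.4%. The number of arrays limits the precision.

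Marker genes of cell types that the spleen could hold, or that RNA could come from, differed between the groups and, for some, within the unirradiated group. The 12 markers of erythroid precursors had a summed level of 8.47, 8.25 and 7.14 in unirradiated replicates 1 to 3 and of 3.03 to 3.72 in the irradiated arrays. All 12 were called lower, and 2 of them (Rhd and Add2) stood at the background on the irradiated arrays. All 10 B cell markers were called lower, with summed levels of 8.22 to 8.60 without and 5.68 to 5.84 with irradiation. Of the 10 T cell markers, 9 were lower and 1 higher (6.10 to 6.62 and 4.84 to 4.89). All 10 macrophage markers were higher (7.53 to 7.65 and 9.49 to 9.57), as were all 7 plasma cell markers and 9 of 10 stroma and endothelium markers. Neutrophil markers had a summed level of 10.05, 9.82 and 8.86 in unirradiated replicates 1 to 3 and of 9.03 to 9.23 in the irradiated arrays. They did not move as one: 3 were lower (Elane, Mpo and Camp), 1 was higher (Cxcr2) and 6 did not pass. Of the 7 NK cell markers, 2 were higher and 2 lower. Exocrine pancreas is not a tissue of the spleen. Its markers, 11 of 12 called higher, summed to 1.18, 7.70 and 5.21 on the unirradiated arrays and to between 10.60 and 10.93 on the irradiated ones. How this RNA came to be in the pools was not tested.

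After irradiation, most of the cell-cycle genes were lower. Of the 41 members tested, 30 were called lower and 3 higher, and 8 did not pass. Across all genes tested, 31% were called lower and 28.3% higher. The median change of the members was -0.74, against -0.06 for all genes. By fitted values, 18 members were lower by 2-fold or more, which is 43.9% of those tested, against 9.34% of all genes; for Ccna1, one of the 18, only a bound can be given. The groups did not overlap for 35 members, with all irradiated arrays below for 31 and above for 4; among all genes 67.3% did not overlap, 35.7% below and 31.7% above. In these samples of mixed cell types, fewer cells of a type and less RNA per cell cannot be told apart. The largest falls were in cyclins A2, E1 and B2 and in E2f8 and E2f2, each between 7.90-fold and 11.2-fold. The 3 higher members were Ccnd1, Ccnd2 and Rbl2. Of these, Ccnd1 alone rose by at least 2-fold, as 14.2% of all genes did. The 1 probe of the cyclin E2 gene Ccne2 stood at the background on all 6 arrays and was not tested. Without unirradiated replicate 3, the array with the lowest summed erythroid and neutrophil markers in its group, 31 members were lower and 4 higher. Of all genes, 8919 were then lower and 7767 higher, against 8259 and 7537 with all 6 arrays. The 3 unirradiated arrays and irradiated replicate 1 lay in the first row of the slide and the other irradiated arrays in the second. With the row as a block, 23 members were lower. Calls over all genes dropped as well, to 6281 lower and 5676 higher. In that fit Ccna1, Ccnt2, Cdk4, Cdk7, E2f1, E2f3 and Rb1 were not called (adjusted p = 0.062 to 0.15). Within the first row alone, with 1 irradiated array, Ccng2, Ccnl1, Ccnl2, Cdc25a, Cdk6, E2f4, Rbl1 and Rbl2 were not called either (adjusted p = 0.051 to 0.0831).

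**Figure D1:**
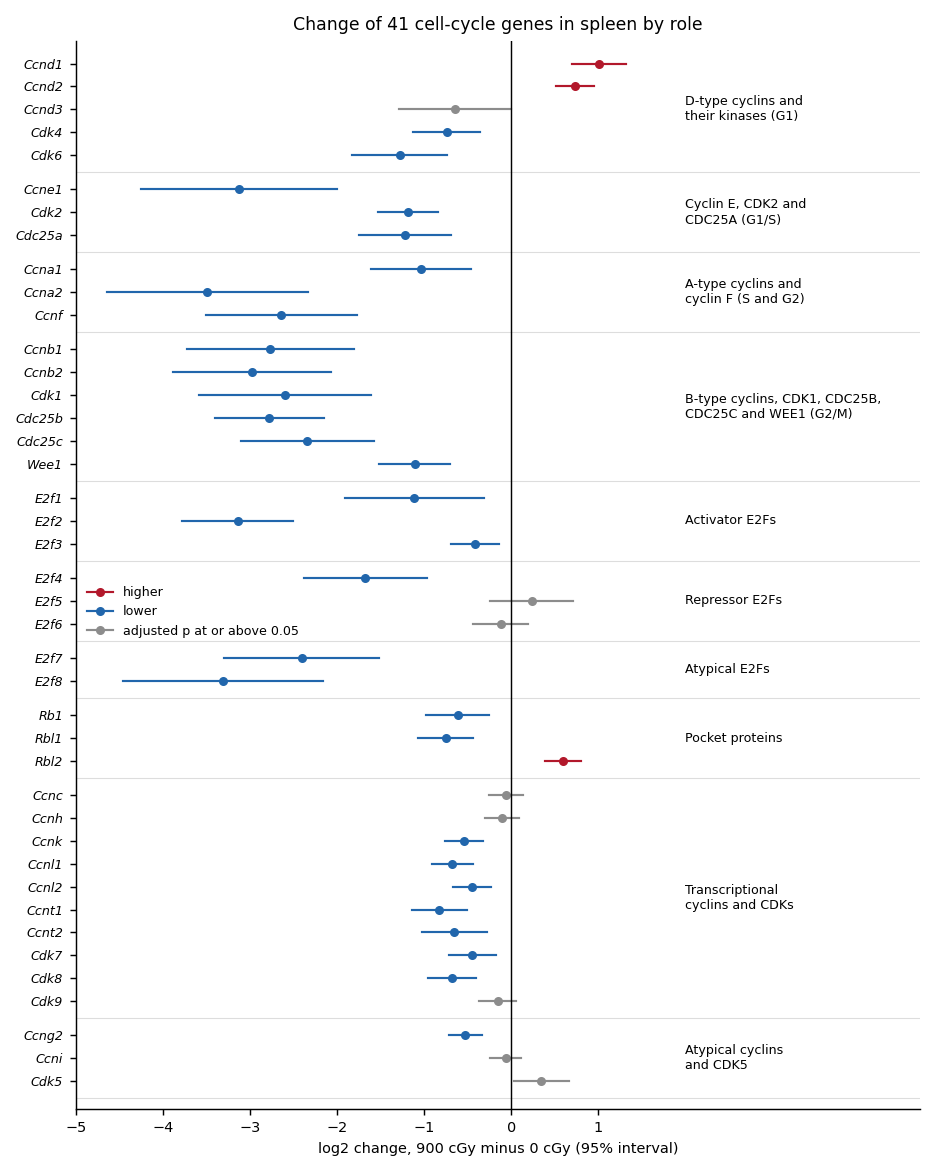
Log2 change (900 cGy minus 0 cGy) of the 41 tested members on the horizontal axis, grouped by role, with points for the estimate and bars for the 95% interval; blue is lower, red higher and grey not past the adjusted threshold. Ccna2, E2f8, E2f2, Ccne1 and Ccnb2 lie farthest to the left. The estimates of Ccnd1, Ccnd2 and Rbl2 lie to the right of 0, as do those of Cdk5 and E2f5, which did not pass.

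As many members moved together, their RefSeq promoter windows (250 bases before to 50 after the start, GRCm38.p6) were searched on both strands for letters that cell-cycle factors are known to read. A window was found for 31 members, 34 windows in all; none was at hand for Ccna2, Ccnd1, Ccnd2, Ccne2, Ccnh, Cdc25c, Cdk5, E2f4, E2f5, Rb1 and Wee1. The E2F letters TTTCCCGC, TTTGGCGC or TTTCGCGC were in 7 member windows (20.6%) and in 1.84% of all 32851 windows. The 7 genes were Cdc25a, Cdk1, Cdk2, E2f2, E2f3, E2f7 and Rbl1, and each was called lower. So were 73.2% of all tested members, a share that includes members without a window. Ccnd1 and Ccnd2, which were called higher, had no window to search. Members whose windows lacked these letters were called lower too, among them Ccne1, Ccnb2 and E2f8. The letters of the cell cycle homology region (CHR), TTTGAA or TTCGAA, were in 9 member windows (26.5%) against 19.2% of all, and CCAAT was in 19 (55.9%) against 37.4%. CHR and CCAAT letters stood together in a window of Ccnb2, Ccnf, Cdc25b, Cdk1, E2f2, E2f3 and E2f8, and of 7.52% of all windows. No site of one kind overlapped a site of another. Rbl2 and Ccni, which were called higher and not called, held CHR letters too. A match of letters is a description and shows no binding.

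Some of these promoters are shown for the 150 bases that end just before the start site, 5′ to 3′ on the gene's strand, as examples of how these letters lie in members that fell. Cdk1 holds all 3 kinds, Ccnf and E2f8 CHR with CCAAT letters, Cdc25a E2F with CCAAT letters, Ccnb2 a row of CCAAT letters, and Rbl1 an E2F match close to its start. Capitals mark E2F, CHR and CCAAT letters on either strand.
Cdk1 (chr10:69352913-69353062, minus strand): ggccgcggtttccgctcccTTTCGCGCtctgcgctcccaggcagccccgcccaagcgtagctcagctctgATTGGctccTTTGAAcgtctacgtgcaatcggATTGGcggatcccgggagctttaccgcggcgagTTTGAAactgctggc
Ccnb2 (chr9:70421555-70421704, minus strand): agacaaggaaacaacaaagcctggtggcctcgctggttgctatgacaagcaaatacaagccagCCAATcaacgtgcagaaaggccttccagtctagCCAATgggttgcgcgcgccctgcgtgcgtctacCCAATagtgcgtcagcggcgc
Ccnf (chr17:24251410-24251559, minus strand): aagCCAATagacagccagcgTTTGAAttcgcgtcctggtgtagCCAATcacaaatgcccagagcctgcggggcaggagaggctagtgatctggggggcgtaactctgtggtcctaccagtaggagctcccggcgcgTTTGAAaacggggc
E2f8 (chr7:48881597-48881746, minus strand): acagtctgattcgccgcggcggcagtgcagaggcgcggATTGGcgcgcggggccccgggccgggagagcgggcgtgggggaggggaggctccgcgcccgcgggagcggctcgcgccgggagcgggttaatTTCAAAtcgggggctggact
Cdc25a (chr9:109875429-109875578, plus strand): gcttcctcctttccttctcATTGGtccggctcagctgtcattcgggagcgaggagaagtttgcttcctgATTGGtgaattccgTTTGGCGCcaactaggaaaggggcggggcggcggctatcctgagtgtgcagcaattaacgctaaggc
Rbl1 (chr2:157204535-157204684, minus strand): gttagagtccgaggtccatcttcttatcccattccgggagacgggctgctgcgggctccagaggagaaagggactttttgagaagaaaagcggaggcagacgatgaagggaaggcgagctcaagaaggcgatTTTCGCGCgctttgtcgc
Counted from the start site (-1 is the base before it), the E2F letters of Cdk1 began at -131 and its CHR letters at -71 and -15. Ccnb2 carries 3 CCAAT stretches, at -87, -54 and -21, and CHR letters outside the stretch shown, at -167 and at 5.

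In the G1 group, cyclins D1 and D2 rose and the kinases Cdk4 and Cdk6 fell, while cyclin D3 did not pass. Ccnd1 encodes cyclin D1, the mitogen-responsive partner of CDK4 and CDK6, and read 3.28, 3.12 and 3.51 on the unirradiated arrays and 4.46, 4.28 and 4.20 on the irradiated ones. Every irradiated array was above every unirradiated one, and the change was 1.01 ± 0.13 (adjusted p = 0.000848), a 2.01-fold rise. Cyclin D2 (Ccnd2) read 3.08, 3.16 and 3.33 without and 3.92, 3.92 and 3.94 with irradiation. Its groups were apart as well, and it rose by 0.74 ± 0.09 (adjusted p = 0.000714). In neither of these cyclins was unirradiated replicate 3 low: it had the highest value of its group in both.

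The partner kinases fell. Cdk4 read 4.57, 4.43 and 3.99 without and 3.62, 3.61 and 3.54 with irradiation, and Cdk6 read -2.34, -2.61 and -3.18, then -3.81, -3.98 and -4.19. Neither kinase had overlapping groups, and unirradiated replicate 3 lay nearest to the irradiated arrays in both. The changes were -0.74 ± 0.16 (adjusted p = 0.00706) and -1.28 ± 0.23 (adjusted p = 0.00322). With the slide row as a block Cdk4 was not called (adjusted p = 0.062), and within the first row neither kinase was (0.11 for Cdk4 and 0.072 for Cdk6). All 3 probes of Cdk4 were called lower, by -0.74, -0.91 and -0.98. Cyclin D3 (Ccnd3), the D-type cyclin known for its part in lymphoid and erythroid cells, read 5.66, 5.56 and 4.67 and then 4.81, 4.58 and 4.57. Its groups overlapped through unirradiated replicate 3 alone, and its change of -0.64 (95% interval -1.29 to -0.0025) did not pass (adjusted p = 0.0776). Without that replicate the change of Ccnd3 was -0.96 and passed (adjusted p = 0.000948).

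Among the G1/S genes, Ccne1 had the largest change. It encodes cyclin E1, which activates CDK2 at the entry into S phase, and read 3.96, 3.58 and 2.06 on the unirradiated arrays and 0.08, 0.02 and 0.12 on the irradiated ones. The irradiated arrays lay within 0.102 of each other and below all unirradiated ones, of which replicate 3 was the lowest by a wide margin. The fall was -3.13 ± 0.47 (adjusted p = 0.00155), 8.73-fold, and a second probe of Ccne1 fell by 3.17 on the log2 scale. Cdc25a, whose product removes inhibitory phosphates from CDK2, read 2.27, 2.28 and 1.50, then 0.82, 0.83 and 0.74. It was lower by -1.22 ± 0.22 (adjusted p = 0.00334), without overlap. Cdk2 itself changed by -1.19 ± 0.14 (adjusted p = 0.000642), 2.28-fold. For Ccne2 the signals were -8.32, -8.47 and -8.76 in unirradiated and -8.29, -8.36 and -8.41 in irradiated arrays, all at the background and without a fold.

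Cyclin A2 fell more than any other member. Ccna2, which partners CDK2 and CDK1 in S and G2, read 4.58, 4.22 and 2.65 on the unirradiated and 0.45, 0.29 and 0.24 on the irradiated arrays. The groups were apart by more than 2 log2 units even at unirradiated replicate 3, and the change was -3.49 ± 0.48 (adjusted p = 0.00108), 11.2-fold. Ccnf encodes cyclin F, the substrate-binding part of an SCF ubiquitin ligase, and read 2.84, 2.71 and 1.46, then -0.28, -0.33 and -0.30. Its change was -2.64 ± 0.36 (adjusted p = 0.00105), 6.23-fold, with the same order of the unirradiated arrays. Ccna1, the cyclin A gene known mainly from germ cells, was dim, at -5.46, -5.80 and -6.42 on the unirradiated arrays. On no irradiated array was it well above background, and so the fold is given as at least 1.15-fold lower; the fitted change was -1.04 with the processed signal and -0.19 (adjusted p = 0.222) after normexp background correction.

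All 6 genes of the G2/M group were called lower. Ccnb2, a B-type cyclin of CDK1, read 4.57, 4.17 and 3.02 without and 1.02, 0.87 and 0.93 with irradiation. Cdc25b, a phosphatase that activates CDK1, read 4.22, 3.95 and 3.19, then 1.14, 0.996 and 0.894. In both genes the irradiated arrays were close together and far below the lowest unirradiated array, replicate 3. The changes were -2.98 ± 0.38 (adjusted p = 0.000767) for Ccnb2 and -2.78 ± 0.26 (adjusted p = 0.000245) for Cdc25b. Cyclin B1 (Ccnb1) fell 6.80-fold, and its 3 probes, which lie at separate positions of the gene, were called lower by -2.77, -2.66 and -3.05. The kinase gene Cdk1 fell 6.05-fold by its brightest probe, a change of -2.60, and by 1.64 on the log2 scale over the mean of its probes. Cdc25c was 5.07-fold lower, a change of -2.34 that was -1.43 after normexp background correction and passed there too (adjusted p = 0.00146). Wee1, the kinase that holds CDK1 inactive, changed less, by -1.11 ± 0.17 (adjusted p = 0.00178), 2.16-fold.

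**Figure D2:**
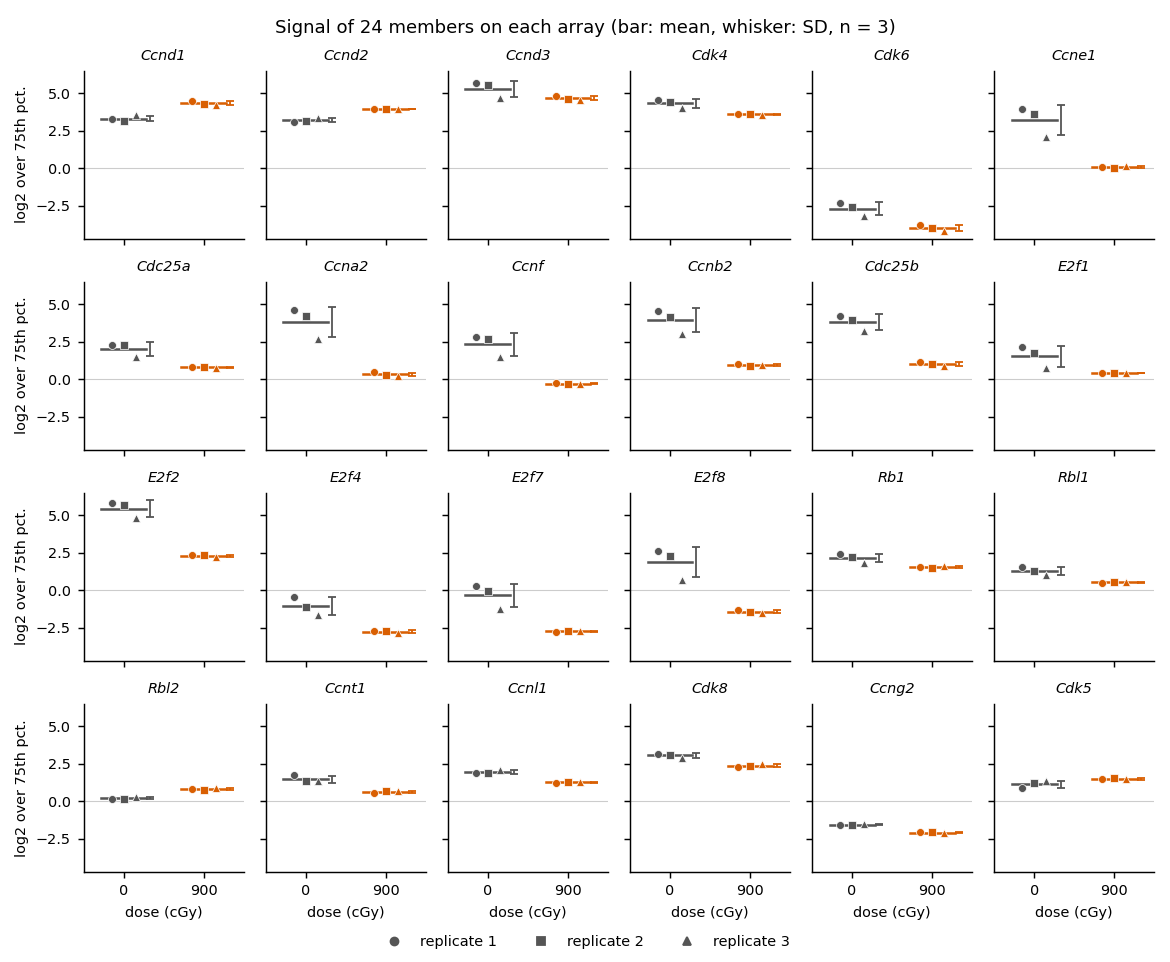
Log2 signal over the array's 75th percentile (vertical axis) on each array for the members described array by array, at 0 cGy (grey) and 900 cGy (orange); symbols mark the replicate, bars the mean and whiskers the SD of 3 arrays. Unirradiated replicate 3 (triangle) is the lowest of its group in Ccne1, Ccna2, Ccnb2, E2f8 and other genes with large falls, and the highest in Ccnd1, Ccnd2 and Rbl2.

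The E2F factors did not move as one. Among the activators, E2f2 had the smallest adjusted p of all members: it read 5.85, 5.66 and 4.80 without and 2.32, 2.32 and 2.23 with irradiation. The groups were separated by over 2 log2 units, and the change was -3.14 ± 0.27 (adjusted p = 0.000171), 8.83-fold. E2f1, the founding member of the family, read 2.13, 1.72 and 0.76, then 0.42, 0.44 and 0.42. Its unirradiated replicate 3 was close to the irradiated arrays, and the change of -1.11 ± 0.33 (adjusted p = 0.026) was lost without unirradiated replicate 1 (adjusted p = 0.0563), unirradiated replicate 2 (0.0815) or any 1 irradiated replicate (0.0634 to 0.0659). Without unirradiated replicate 3 the change of E2f1 was -1.50 (adjusted p = 0.000492). E2f3 changed by -0.41 ± 0.12 (adjusted p = 0.0204), and was not called without unirradiated replicate 1 (adjusted p = 0.0503), unirradiated replicate 2 (0.0602), irradiated replicate 2 (0.0759) or irradiated replicate 3 (0.0572).

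Of the 3 repressor E2Fs, E2f4 alone was called; its product and that of E2f5 bind promoters together with pocket proteins in resting cells. E2f4 read -0.45, -1.12 and -1.67, then -2.69, -2.69 and -2.88, with no overlap, and fell by 1.68 ± 0.29 on the log2 scale (adjusted p = 0.00297), 3.19-fold. E2f5 changed by 0.24 (95% interval -0.24 to 0.71) and E2f6 by -0.12 (-0.44 to 0.20), both with overlapping groups. Whether E2f4 differed from these relatives was not tested. The atypical E2Fs, which repress E2F target genes without a DP partner, both fell. E2f8 read 2.62, 2.30 and 0.71 and then -1.33, -1.46 and -1.50, and E2f7 read 0.25, -0.05 and -1.24 and then -2.81, -2.70 and -2.72. Every irradiated value was below every unirradiated one in both, and unirradiated replicate 3 was again lowest. The changes were -3.31 ± 0.48 (adjusted p = 0.00133) for E2f8, 9.91-fold, and -2.40 ± 0.37 (adjusted p = 0.00175) for E2f7, which was -1.42 over the mean of its probes.

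The pocket proteins, which hold E2Fs in check, split. Rb1 read 2.39, 2.24 and 1.84 without and 1.58, 1.46 and 1.58 with irradiation. Rbl1 (p107) read 1.52, 1.30 and 1.03, then 0.50, 0.54 and 0.55. Both were lower in every irradiated array, by -0.61 ± 0.15 (adjusted p = 0.0121) and -0.75 ± 0.13 (adjusted p = 0.00312). Rb1 was not called with the slide row as a block (adjusted p = 0.0914). Rbl2 (p130), the pocket protein typical of resting cells, read 0.15, 0.18 and 0.31, then 0.82, 0.73 and 0.87. It was higher in every irradiated array, by 0.59 ± 0.09 (adjusted p = 0.00142), 1.51-fold. Under spike-in scaling the rise of Rbl2 was 0.35 and did not pass (adjusted p = 0.0879), while Ccnd1 and Ccnd2 still passed.

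The transcriptional cyclins and CDKs changed by less than 2-fold throughout. Of the 10, 7 were called lower, against 31% of all genes tested. All 10 fitted changes were below 0, and the median was -0.50, against -0.06 for all genes. Cyclin T1 (Ccnt1), the partner of CDK9 in the elongation factor P-TEFb, read 1.74, 1.34 and 1.34, then 0.57, 0.67 and 0.71. It was apart between the groups and fell by 0.83 ± 0.13 on the log2 scale (adjusted p = 0.00205). Ccnl1, a cyclin of splicing kinases, read 1.86, 1.86 and 2.11, then 1.25, 1.26 and 1.28. Cdk8, the kinase of the Mediator complex, read 3.18, 3.11 and 2.88, then 2.27, 2.36 and 2.50. Neither of these genes overlapped between the groups, and both changed by -0.68, with standard errors of 0.10 and 0.11 (adjusted p = 0.00132 and 0.00251). In Ccnl1 unirradiated replicate 3 was the highest of its group. Ccnk, Ccnl2, Ccnt2 and Cdk7 were lower by between -0.45 and -0.65. Cdk7, the kinase of TFIIH, was not called without irradiated replicate 3 (adjusted p = 0.0542), over the mean of its probes (0.0777), with the slide row as a block (0.0935) or within the first row (0.161). Ccnc, Ccnh and Cdk9 changed by -0.06, -0.11 and -0.15 and did not pass.

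Of the atypical cyclins, Ccng2, which is known as a cyclin of cells leaving the cycle, read -1.61, -1.57 and -1.50, then -2.05, -2.07 and -2.14. It was lower in every irradiated array, by -0.53 ± 0.08 (adjusted p = 0.00156). Ccni changed by -0.07 (95% interval -0.25 to 0.12). Cdk5, a kinase best known from neurons, read 0.88, 1.21 and 1.33 and then 1.47, 1.53 and 1.46; the irradiated arrays were above, but the change of 0.35 ± 0.13 did not pass (adjusted p = 0.0577). Without unirradiated replicate 3 it did, at 0.44 (adjusted p = 0.0226).

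The unirradiated arrays were not alike in these genes. In all 18 members that were lower by 2-fold or more, unirradiated replicate 3 had the lowest value of its group, and in 17 of them the values fell in the order of replicates 1, 2 and 3. Among the 2487 genes on the array that were lower by at least 2-fold and measured on all arrays, replicate 3 was lowest in 60.4%, and among all genes tested in 40.8%. The gap between replicate 3 and the mean of the other unirradiated arrays had a median of -1.13 in the 18 members and ran to -1.75 in Ccna2 and E2f8. The members called lower by less than 2-fold had a median gap of -0.11, and the transcriptional cyclins and CDKs one of -0.01. The 18 members spanned a median of 1.34 log2 units within the unirradiated group and 0.15 within the irradiated group. Cell-cycle genes that are no members, listed below, had the same order. The mean signal of 30 G1/S genes was 2.87, 2.62 and 1.67 on unirradiated replicates 1 to 3. For 30 G2/M genes it was 1.76, 1.50 and 0.48, so the low replicate 3 was not particular to the members. The markers of erythroid precursors had the same order in 12 of 12 genes, with a median gap of -1.61, and those of neutrophils in 10 of 10, with a median gap of -1.39. Replicate 3 was the lowest unirradiated array in 0 of 10 B cell and 0 of 10 T cell markers, whose median gaps were 0.42 and 0.41. It was lowest in 1 of 10 macrophage markers and in none of the NK cell, plasma cell or stroma and endothelium markers. The part of the erythroid cells and of the neutrophils in the members' levels was not tested.

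**Figure D3:**
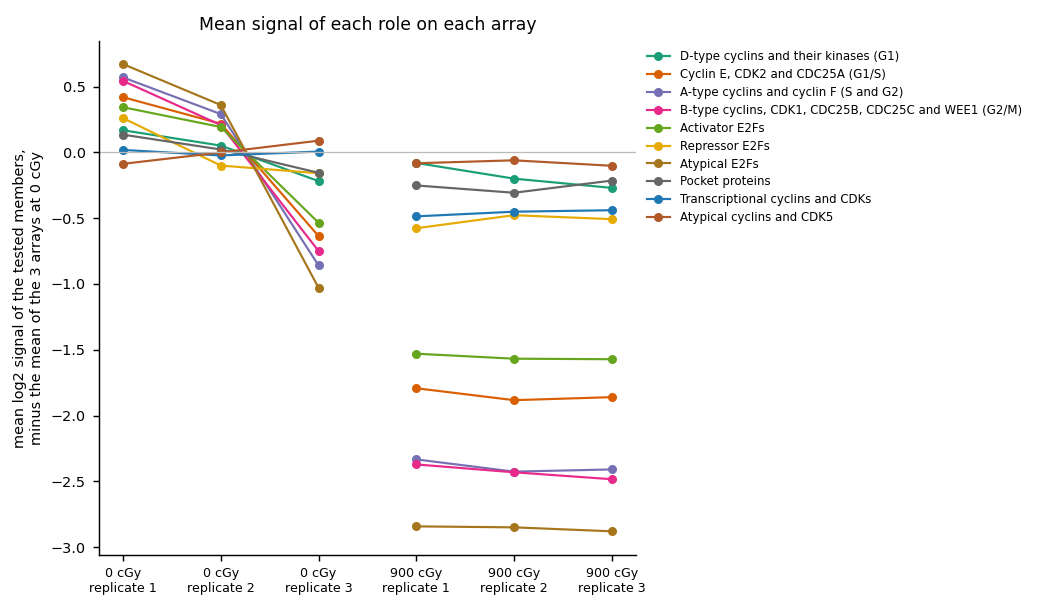
Mean log2 signal of the tested members of each role on each of the 6 arrays, as the difference from the mean of the 3 arrays at 0 cGy (vertical axis); lines only join points of a role within a dose. The atypical E2Fs stood at 0.67, 0.36 and -1.03 at 0 cGy and between -2.84 and -2.88 at 900 cGy, while the transcriptional genes stayed between -0.02 and 0.02 at 0 cGy and lay between -0.44 and -0.49 at 900 cGy.

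Several probes were tested for 15 members, and in 9 of these all probes were called in the same direction. Counted singly, 57.5% of all probes tested were called in either direction, which is a share of probes and not of genes. For Cdk9 the choice of probe mattered. Its brightest probe (mm9 chr2:32563021-32563080) changed by -0.15 and did not pass (adjusted p = 0.192), but the probes at chr2:32563742-32563801 and chr2:32561467-32561526 fell by 0.46 and 0.86 on the log2 scale (adjusted p = 0.0059 and 0.000257). Ccnc was like it, with -0.06 for the probe at chr4:21673861-21673920 and -0.52 (adjusted p = 0.0156) for the one at chr4:21676240-21676299. The reverse held for E2f7, Cdk7 and Cdk8, in which a dimmer probe did not pass, at -0.44, -0.01 and -0.07. In Cdk8 that probe (chr5:147043316-147043375) lies far upstream of the brightest one (chr5:147114021-147114080). Both tested probes of Cdk1 were called lower, but by -2.60 and -0.69, and both Ccnd3 probes failed to pass. Another Cdk1 probe (chr10:68801053-68801112) stood at the background on all 6 arrays and was not tested, although it overlaps the brightest one (chr10:68801072-68801131). Which transcripts the probes detect was not examined.

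**Figure D4:**
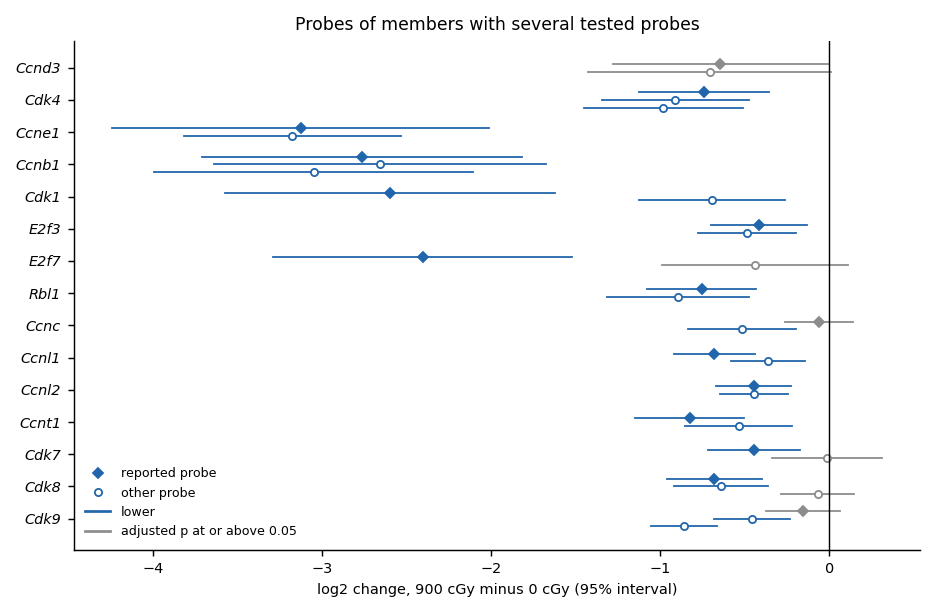
Log2 change (900 cGy minus 0 cGy) with its 95% interval for each tested probe of the 15 members with several; filled diamonds are the probes whose values are given for the gene, open circles the others, blue is lower and grey not past the adjusted threshold. No probe lies to the right of 0, and the probes of Cdk1, E2f7, Ccnc, Cdk7, Cdk8 and Cdk9 differ in size or call.

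Other genes of the same machinery were examined by list, beside 31% lower and 28.3% higher over all genes tested. Of 30 genes of the G1/S transition and of DNA replication, known as E2F targets, 29 were lower, with a median change of -1.75. The origin-licensing genes Orc1 and Cdc6 fell by 3.39 ± 0.48 and 3.38 ± 0.46 on the log2 scale (adjusted p = 0.00123 and 0.00102), and Rrm2, a subunit of ribonucleotide reductase, fell by 2.88 ± 0.45 (adjusted p = 0.00184). The exception, named after its value was seen, was the uracil-DNA glycosylase gene Ung, at 0.15 ± 0.19 (adjusted p = 0.528). After normexp background correction the change of Orc1 was -2.04. Of the G2/M genes, 29 of 29 tested were lower, with a median of -2.50. Mki67, whose product is the proliferation marker Ki-67, fell 9.99-fold, and the mitotic genes Nusap1 and Cdca3 fell 8.53-fold and 8.31-fold. The probe of Aurkb stood at the background and was not tested.

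The partners of E2F and the factors of the DREAM, MYB-MuvB and FOXM1 complexes, which hold cell-cycle genes off in resting cells or turn on the G2/M genes, gave 8 lower and 1 higher of 10. The transcription factor genes Mybl2 and Foxm1 fell 6.58-fold and 4.07-fold, and Tfdp2, an E2F dimer partner, 3.03-fold by its brightest probe, a change of -1.60, and by 2.50 on the log2 scale over the mean of its probes. The member that rose, named after its value was seen, was the MuvB subunit gene Lin52, by 0.49 ± 0.09 (adjusted p = 0.00378). Lin52 was not called under spike-in scaling (0.24, adjusted p = 0.213), over the mean of its probes (0.08, adjusted p = 0.435), or with the slide row as a block (0.37, adjusted p = 0.0558). Among 17 regulators of CDK-cyclin complexes, 9 were lower, 2 higher and 6 did not pass. Fbxo5, which restrains the anaphase-promoting complex, fell 7.28-fold, the CDK-binding subunit gene Cks2 5.74-fold, and Pkmyt1, an inhibitory kinase of CDK1, 4.23-fold. The 8 CDK inhibitors were called in both directions, 4 each. Cdkn1a (p21), which blocks CDK2, rose 24.4-fold and Cdkn2a 5.36-fold, while Cdkn3, a CDK2 phosphatase, fell 6.80-fold. The 20 other cyclins and CDKs gave 7 higher and 7 lower, with a median of 0.13. These counts are near the shares over all genes tested, 28.3% higher and 31% lower. Ccng1, a p53 target, rose 5.31-fold and Cdk18 4.10-fold, and Cdkl1 fell 4.20-fold.

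**Figure D5:**
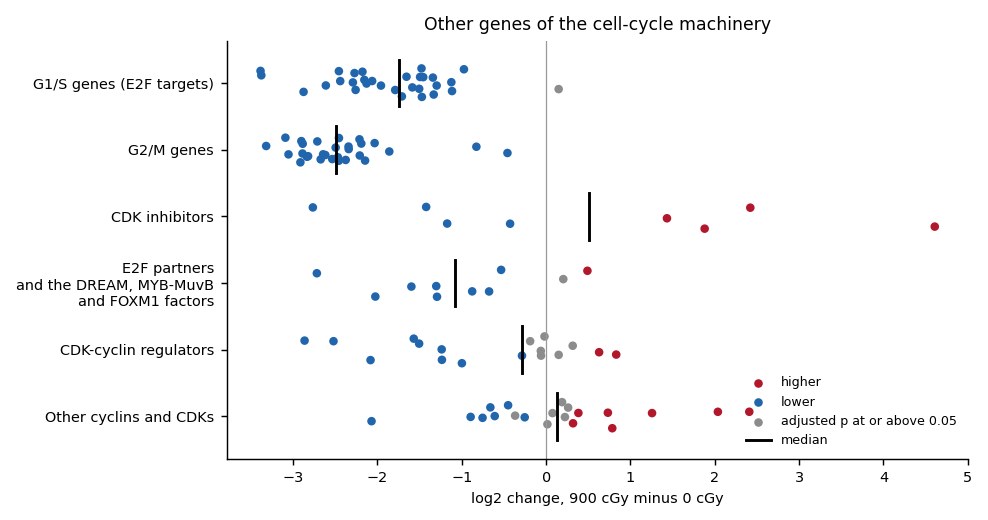
Log2 change (900 cGy minus 0 cGy) of each tested gene in the 6 lists of related genes, which hold no members; points are genes, coloured by call, and black bars mark the median of the list. The G1/S and G2/M lists have medians of -1.75 and -2.50, and the CDK inhibitors and other cyclins spread to both sides of 0.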

How the data were processed

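Total RNA of 6 pools of mouse spleen, 3 at 0 cGy and 3 at 900 cGy, was measured on Agilent 1-colour arrays on 1 slide, read in 1 scan. Titles gave the groups and replicate numbers. Per the submitters' processing notes, the scans were quantified in Agilent Feature Extraction 10.5.1.1. Per the file headers, the deposited processed intensity was background-subtracted and not normalized between arrays, and a surrogate value stood in for weak spots, which compresses the folds of dim genes. The log2 values of the authors' deposited table matched these intensities once scaled by the 75th percentile and centred per probe on the median, in the same direction (r of 0.99994 to 0.99997 per array, column medians 0.047, -0.0059, -0.047, -0.025, 0.018 and -0.0082 for unirradiated, then irradiated replicates 1 to 3), and served as an alternative.

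From the processed intensity, log2 values minus the array's 75th percentile over 59305 non-control spots were computed. Outlier spots (91 to 146 per array) were left out and spots of a probe averaged. Members were matched by the symbol in the files; other probes were named through their accession, symbol or synonym in a RefSeq table (GRCm38.p6), else by the file. Probe positions are on mm9, as the files give them. A gene was represented by its brightest probe and tested if, in at least 1 group, every array rated that probe well above background. Groups were compared with limma 3.58.1 in R 4.3.3 (lmFit, eBayes, two-sided), after the code was tested on simulated data. A summed level is the log2 of the sum of a list's signals over the 75th percentile. A bound sets the bright group's mean against the lowest signal well above background on each dim array, or the gene's own if higher. The 20 alternatives covered background correction, scaling, the dim filter, the choice of probe, names, blocks, array weights and leaving out each array. Values array by array are given for the 2 called members of each role with the largest change and any called against its role, and in each list the 3 called genes with the largest change are named; Ccnd3, Cdk5, Ccne2, Ccnl1 and the unirradiated arrays of Ccna1 were given array by array after their values were seen, as were the probes described singly. The members, lists and rules were chosen with earlier results of these data known.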

Additional observations from a re-analysis of the deposited data

How the results depend on the processing

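Of the 33 called members, 18 kept their call and direction in every alternative, Ccnd1 and Ccnd2 among them. With an array left out, 27 to 31 members were lower and 3 or 4 higher, and over all genes 6453 to 7767 were higher and 6816 to 8919 lower. Within the first slide row, which holds 3 unirradiated arrays and 1 irradiated array, 16 members were lower and, of all genes, 4466 were higher and 3931 lower; fewer arrays entered that fit. With the slide row as a block, 23 members were lower and, of all genes, 5676 were higher and 6281 lower. Array weights gave 5 higher and 32 lower members, and 8676 higher and 9819 lower of all genes, more than the main fit in each case. The cause was not tested. Ccni turned to 0.051 and 0.027 with normexp background correction, without and with quantile normalization, E2f5 to -0.012 with spike-in scaling; and Ung to -0.099 with spike-in scaling, -0.0027 with the slide row as a block or within the first row, -0.067 with array weights and -0.014 without unirradiated replicate 3 (to 0.34 without unirradiated replicate 2); none of these was called. Replicate numbers did not pair the arrays (same-number correlations of 0.073, 0.117 and -0.002), and with the number as a replicate block 3 members were higher and 31 lower, and 7146 and 7562 of all genes. Ccnd3 passed in 7 alternatives, Cdk5 in 4, Cdk9 in 3, and Ccnc and E2f5 in 1 each. Weak signal limits Ccna1, Ccne2 and the dimmer probes.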
